A study of Mus musculus with 18 samples.

Results

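The genes described here encode the nuclear part of the oxidative phosphorylation machinery. They were chosen by symbol: all probe sets with a single gene symbol that begins with Ndufa, Ndufb, Ndufc, Ndufs, Ndufv, Uqcr, Cox4 to Cox8 or Atp5, or that is Sdha, Sdhb, Sdhc or Sdhd. This gave 98 probe sets of 89 genes, out of 22180 genes on the array with a singly named probe set, and each gene was represented by its brightest probe set over the 18 arrays. The symbols cover 40 genes of complex I, 4 of complex II, 8 of complex III, 19 of complex IV and 18 of complex V. Among them are 77 structural subunits, 8 complex I assembly factors (Ndufaf1 to Ndufaf8), 2 related proteins and 2 pseudogenes. A further 10 probe sets pair such a symbol with another gene and were left out.

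The arrays measured RNA of differentiated C2C12 cells; C2C12 is an established line of mouse muscle precursors, which join into myotubes in low serum. All groups were moved from 20% fetal bovine serum to 2% horse serum, infected with an shRNA virus 36 h after differentiation began and collected 48 h after infection. There were 3 groups of 6 arrays: control cells with a scramble shRNA, Nup210 shRNA cells (labelled Nup210 depleted; Nup210 encodes a membrane nucleoporin) and Mef2c shRNA cells (labelled Mef2c depleted; Mef2c encodes a transcription factor of muscle differentiation). All cells are of 1 line, and the titles number the replicates without saying whether they were separate cultures, so p-values measure the spread between these arrays.

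Oxidative phosphorylation passes electrons from NADH (complex I) and succinate (complex II) through ubiquinone to complex III, and on through cytochrome c to oxygen at complex IV. Complexes I, III and IV pump protons out of the mitochondrial matrix, and complex V, the ATP synthase, uses their return flow to make ATP. In muscle the program grows with differentiation, and 3 subunits of complex IV have an isoform used mainly in striated muscle (Cox6a2, Cox7a1 and Cox8b) beside a ubiquitous one (Cox6a1, Cox7a2 and Cox8a). Known activators of the nuclear genes are the coactivators Ppargc1a and Ppargc1b and the transcription factors Nrf1, Gabpa and Esrra, while Tfam acts on the mitochondrial genome.

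Array medians lay between 5.48 and 5.57 on the log2 scale and arrays of a group correlated at 0.991 to 0.995. Mef2c RNA on the Mef2c shRNA arrays was 17.9% of control (two-sided exact permutation p = 0.00216, the smallest that 6 against 6 arrays can give). Nup210 RNA on the arrays labelled Nup210 shRNA was 93.1% of control (exact p = 0.0801), so its mRNA does not clearly bear out that label, and "Nup210 shRNA" below names the label. On the Mef2c shRNA arrays Nup210 RNA was 109% of control (exact p = 0.0411). Set directly against Mef2c shRNA, it was lower with Nup210 shRNA (log2 difference -0.23, limma adjusted p = 0.0178). All 10 myotube markers were above background, defined as the 95th percentile of 1394 olfactory and vomeronasal receptor genes (5.47), against 1 of 5 measured adipocyte markers, 2 of 4 of osteoblasts and 1 of 4 each of macrophages and endothelium. The mean level of the myotube markers ranged from 11.11 to 11.23 on the control arrays, 10.88 to 11.13 on the Nup210 shRNA arrays and 10.92 to 11.15 on the Mef2c shRNA arrays. That of 7 markers of undifferentiated or cycling myoblasts ranged from 8.05 to 8.30, 8.28 to 8.63 and 7.81 to 8.19. These 7 did not move alike. Against control their log2 differences ran from -0.08 to 0.66 with Nup210 shRNA, 6 of them above 0. With Mef2c shRNA they ran from -0.83 to 0.44, 3 of them above 0. The part of these shifts in the results below was not tested, and in bulk RNA fewer cells of a type and less RNA per cell cannot be told apart.

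Of the 89 genes, 80 were above background. The 9 at or under it were the testis isoforms Cox6b2, Cox7b2 and Cox8c, the lung isoform Cox4i2, the complex IV related protein Ndufa4l2, the pseudogenes Uqcrh-ps1 and Atp5c1-ps, and the subunit genes Ndufs5 and Atp5j2. Differences of these 9 genes are close to what the array can resolve, and the adjusted p-values of all 9 were above 0.05 in every comparison.

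Few oxidative phosphorylation genes differed between Nup210 shRNA and control, and the differences were small. By limma, with p-values adjusted over all 22180 genes and a threshold of 0.05, 2 of 89 genes passed (2.25%): Uqcrc1 was higher and Atp5pb lower. Over all genes tested the share called was 8.16%, with 3.05% higher and 5.11% lower. Counting only genes above background, it was 2.5% of this set beside 13.1% of all genes. Log2 differences ran from -0.34 to 0.18 with a median of 0.032, beside 0.015 over all genes. The 95% confidence interval of each of the 89 differences lay within 1.5-fold in either direction (0.58 on the log2 scale). An unadjusted p under 0.05 was found for 16 of the 89.

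Mef2c shRNA against control gave 10 of 89 genes past the threshold (11.2%), 6 higher and 4 lower, beside 10.8% over all genes tested with 4.34% higher and 6.42% lower. In this fit the share called among these genes was close to that over all genes, and it moved with the settings. Counting only genes above background, it was lower in this set, 12.5% beside 17.2% of all genes. The 6 higher genes were 5 complex I subunits and Cox7a2l; the 4 lower genes were 3 complex I assembly factors and Sdhc. The median log2 difference was 0.063 beside 0.020 over all genes, and 66 of 89 differences (74.2%) were above 0, beside 56.6% of all genes. With each array centred on its median, 7 genes passed (3 higher, 4 lower), 7.87% beside 9.89% of all genes. With renewed quantile normalization 17 passed (13 higher, 4 lower), 19.1% beside 11.4%. With the replicate number as a block 19 passed (14 higher, 5 lower), 21.3% beside 12.9%. The interval lay within 1.5-fold for 87 of 89 genes; the exceptions were Ndufaf7 (-0.78 to -0.51) and Ndufb11 (-0.59 to -0.08), a gene that did not pass (adjusted p = 0.0937).

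Set directly against each other, Nup210 and Mef2c shRNA differed in 14 of 89 genes (15.7%), 6 higher and 8 lower with Nup210 shRNA. The share over all genes was 14.0%, with 7.10% higher and 6.93% lower. Counting only genes above background, it was 17.5% of this set beside 22.5% of all genes. With median centring the count was 9 (5 higher, 4 lower), 10.1% beside 12.5% of all genes. Atp5j, Cox7a2, Cox8b, Ndufa13 and Ndufaf3 then no longer passed (limma adjusted p = 0.0576 to 0.0829). The 3 comparisons share arrays, so their counts are not independent of each other.

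**Figure D1:**
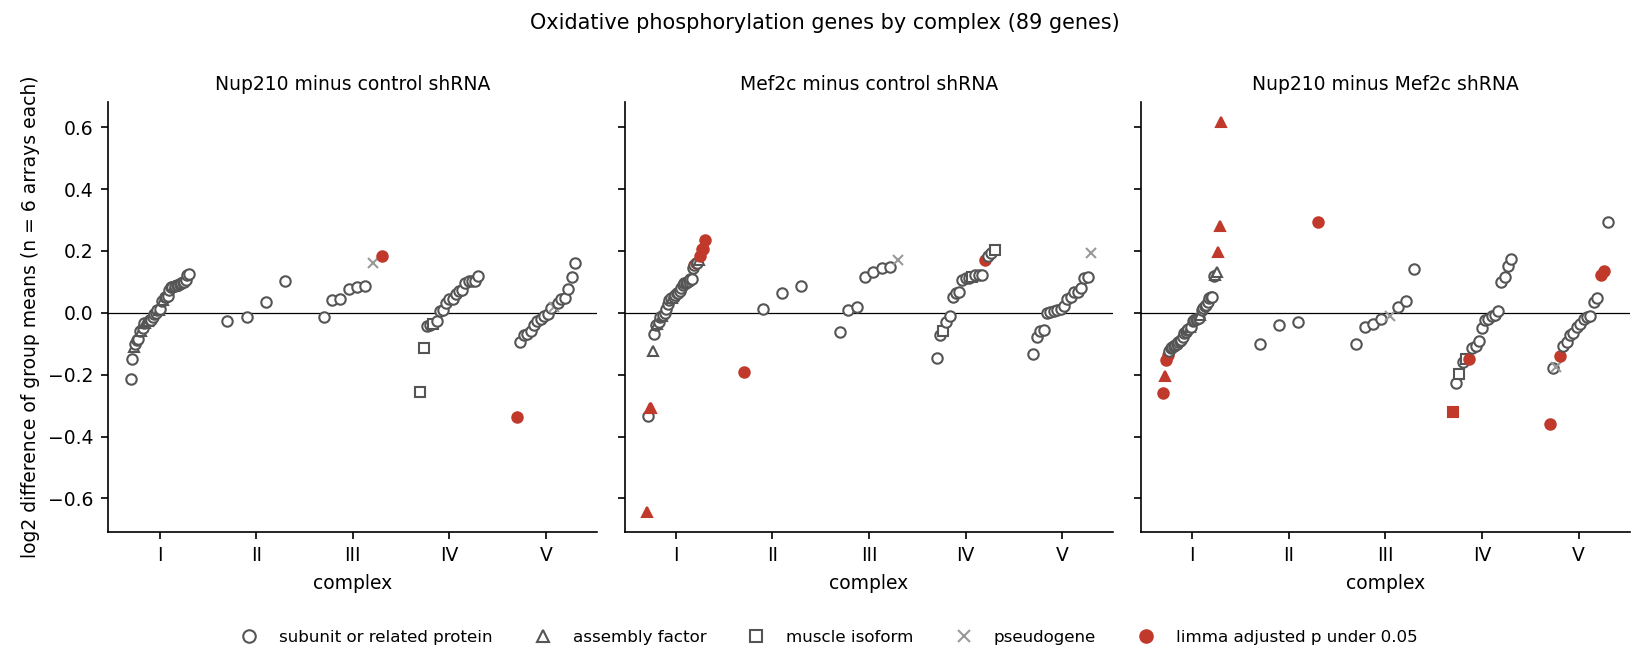
Log2 difference of group means (vertical axis, n = 6 arrays in each group) for each of the 89 genes, ordered by value within complexes I to V; filled red symbols passed limma's adjusted p of 0.05. Differences are within -0.34 to 0.18 for Nup210 shRNA against control, and the lowest point for Mef2c shRNA against control is the assembly factor Ndufaf7 at -0.64.

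The gene that fell with Nup210 shRNA belongs to complex V. Atp5pb encodes subunit b of the peripheral stalk, which holds the catalytic head of the ATP synthase still against the turning rotor. Its log2 level was 10.16 to 10.25 on the control arrays (median 10.19), 9.73 to 9.96 on the Nup210 shRNA arrays (median 9.87) and 10.15 to 10.32 on the Mef2c shRNA arrays (median 10.21). All 6 Nup210 shRNA arrays were below all 12 others. Atp5pb fell to 79.2% of control (log2 -0.34 ± 0.046 SE, n = 6 against 6, limma adjusted p = 0.000132), and against Mef2c shRNA the log2 difference was -0.36 ± 0.046 (adjusted p = 2.35e-05). The call held without any single array, with adjusted p between 0.000155 and 0.000534 for the comparison with control.

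The other 17 complex V genes did not pass against control in either comparison, and their differences for Nup210 shRNA had a highest value of 0.16 (Atp5g1, adjusted p = 0.581). The catalytic subunits Atp5a1 (0.03 ± 0.034) and Atp5b (0.05 ± 0.029) were among these, as was Atp5j, another peripheral stalk subunit (0.04 ± 0.039). The median over complex V was -0.006 for Nup210 shRNA and 0.017 for Mef2c shRNA.

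Atp5pb lies head to head with Wdr77, which encodes a partner of an arginine methyltransferase. The neighbours were looked up after the values of Atp5pb had been seen. Wdr77 was at a log2 difference of 0.09 ± 0.045 for Nup210 shRNA against control (limma adjusted p = 0.263). The neighbour on the other side, I830077J02Rik, was under background (mean level 4.72) and at 0.34 ± 0.12 (adjusted p = 0.0893). The sequence between the starts of both genes, from RefSeq (GRCm38.p6, chr3:105959264-105959497, minus strand, read towards Atp5pb), is shown because both genes share it while Atp5pb alone passed the test. Capitals mark the palindrome TCTCGCGAGA, the longest that the sequence holds more than once, which was looked for after reading the sequence.
Atp5pb-Wdr77: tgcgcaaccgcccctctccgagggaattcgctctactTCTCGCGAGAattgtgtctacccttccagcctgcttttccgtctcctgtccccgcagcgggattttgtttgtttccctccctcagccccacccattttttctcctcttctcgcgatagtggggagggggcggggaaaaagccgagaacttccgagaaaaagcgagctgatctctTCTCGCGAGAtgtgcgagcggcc
The palindrome stands in it 2 times, on both strands alike. It was found in the 250 bases before the start of 2 of 72 matched genes of the set (2.78%) and of 0.407% of all 27025 promoters. Atp5pb, from whose own region the palindrome was taken, is 1 of these 2, so the shares cannot be compared. The other gene was Ndufa7, whose differences were 0.10 and 0.06 for Nup210 and Mef2c shRNA (limma adjusted p = 0.282 and 0.51). A match describes the letters only.

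Subunit c, which forms the rotor ring, is made from 3 genes whose mature protein is the same. Between Nup210 and Mef2c shRNA the genes Atp5g2 and Atp5g3 differed in opposite directions. Atp5g2 was 12.09 to 12.20 on the Nup210 shRNA arrays (median 12.15), 12.26 to 12.32 on the Mef2c shRNA arrays (median 12.29) and 12.19 to 12.31 on the control arrays (median 12.21). Its difference was -0.14 ± 0.033 (limma adjusted p = 0.00646). Atp5g3 was 9.74 to 9.80 (median 9.77), 9.60 to 9.66 (median 9.64) and 9.64 to 9.76 (median 9.69) in the same order, a difference of 0.14 ± 0.032 (adjusted p = 0.00658). The Nup210 and Mef2c shRNA arrays did not overlap for either gene, and the control arrays overlapped both. Atp5g1 was at 0.29 ± 0.14 (adjusted p = 0.198). Leaving out the arrays of lowest weight, numbers 2, 4 and 5 of Nup210 shRNA, gave adjusted p-values of 0.0829 for Atp5g2 and 0.0509 for Atp5g3; whether the probe sets tell these near-copies apart was not tested. The stalk subunit gene Atp5j was higher with Nup210 than with Mef2c shRNA by 0.12 ± 0.039 (adjusted p = 0.0474), a call lost on leaving out any of 15 single arrays (adjusted p up to 0.106); it held only without Nup210 shRNA array 4 or Mef2c shRNA array 3 or 6.

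In complex III, which passes electrons from ubiquinol to cytochrome c, Uqcrc1 rose with Nup210 shRNA. Uqcrc1 encodes a core protein on the matrix side of the complex. Its level was 10.20 to 10.39 on the control arrays (median 10.25), 10.41 to 10.57 on the Nup210 shRNA arrays (median 10.43) and 10.32 to 10.54 on the Mef2c shRNA arrays (median 10.42). The Nup210 shRNA arrays lay above all control arrays, and the Mef2c shRNA arrays overlapped both. The difference was 0.18 ± 0.047 for Nup210 shRNA (limma adjusted p = 0.0199) and 0.14 ± 0.047 for Mef2c shRNA (adjusted p = 0.057). The first no longer passed when Nup210 shRNA array 5 or control array 4 was left out (adjusted p = 0.0521 and 0.0522), without both control arrays 4 and 6 (0.121) and without Nup210 shRNA arrays 2, 4 and 5 (0.268).

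Of the 8 complex III genes, 7 had a difference above 0 for Nup210 shRNA (median 0.080) and 7 for Mef2c shRNA (median 0.124), with only the first call of Uqcrc1 among them. The Rieske iron-sulfur subunit gene Uqcrfs1 was at 0.08 and 0.12 (adjusted p = 0.404 and 0.155) and the hinge subunit gene Uqcrh at 0.05 and 0.15 (0.678 and 0.0701). The pseudogene Uqcrh-ps1, at background, had the largest complex III difference for Mef2c shRNA (0.17 ± 0.14, adjusted p = 0.527). The same 6 control arrays are the reference for both series of values.

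Complex I, with 40 of the 89 genes, held most of the calls for Mef2c shRNA. Of the 40, 8 passed (20%, beside 10.8% of all genes and 17.2% of all genes above background). The 3 that fell were assembly factors, while the 5 that rose were subunits. Assembly factors build the complex without staying in it. Of the 8 measured here, 3 fell with Mef2c shRNA (37.5%, beside 6.42% of all genes called lower; median -0.079). All 8 were above background, where 1389 of 13017 genes were called lower. None of the 8 passed with Nup210 shRNA against control by limma, with 1 at an unadjusted p under 0.05.

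Ndufaf7 encodes a mitochondrial protein that acts early in assembly. Its level was 8.17 to 8.30 on the control arrays (median 8.23), 7.98 to 8.33 on the Nup210 shRNA arrays (median 8.24) and 7.44 to 7.72 on the Mef2c shRNA arrays (median 7.61). All 6 Mef2c shRNA arrays were below all 12 others. The fall was to 64.0% of control (log2 -0.64 ± 0.064, limma adjusted p = 3.11e-06), and Nup210 shRNA was higher than Mef2c shRNA by 0.62 ± 0.064 (adjusted p = 2.66e-06). Its genomic neighbour Prkd3, looked up after these values had been seen, was at -0.03 ± 0.038 (limma adjusted p = 0.65). The neighbour on the other side, Cebpz, had no value here.

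Ndufaf1 encodes a chaperone of the membrane arm. It was 8.08 to 8.22 on the control arrays (median 8.12), 8.04 to 8.18 on the Nup210 shRNA arrays (median 8.09) and 7.75 to 7.96 on the Mef2c shRNA arrays (median 7.81). It fell with Mef2c shRNA to 80.9% of control (-0.31 ± 0.043, limma adjusted p = 0.000112). Ndufaf4, which works with Ndufaf3 on an early intermediate, was 8.19 to 8.47 (median 8.31), 8.16 to 8.28 (median 8.20) and 7.91 to 8.08 (median 8.02) in the same order. It fell to 80.8% of control (-0.31 ± 0.046, adjusted p = 0.000207). For both genes the Mef2c shRNA arrays lay below all 12 others, and both were higher with Nup210 than with Mef2c shRNA, by 0.28 ± 0.043 (adjusted p = 0.000164) and 0.20 ± 0.046 (0.00637).

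Ndufaf3 differed between the shRNA groups in the direction opposite to its partner Ndufaf4. It was 7.96 to 8.05 on the control arrays, 7.87 to 8.09 on the Nup210 shRNA arrays and 8.04 to 8.36 on the Mef2c shRNA arrays, with overlap. Nup210 shRNA was lower than Mef2c shRNA by a log2 difference of -0.20 ± 0.059 (limma adjusted p = 0.0244), and Mef2c shRNA against control was 0.17 ± 0.059 (adjusted p = 0.0715). The first call needed Nup210 shRNA arrays 5 and 6 and Mef2c shRNA arrays 1, 3 and 6, since leaving out any of them ended it (adjusted p = 0.0529 to 0.061). The falls of Ndufaf1, Ndufaf4 and Ndufaf7 with Mef2c shRNA held without any single array. The other assembly factors, Ndufaf2, Ndufaf5, Ndufaf6 and Ndufaf8, did not pass in any comparison.

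Among the 32 complex I subunits, 5 rose with Mef2c shRNA and none fell, beside 4.34% of all genes called higher and 6.42% lower. Of the 13017 genes above background, 846 were called higher and 1389 lower. Ndufs7, a core subunit that carries the iron-sulfur cluster next to the ubiquinone site, was 11.07 to 11.17 on the control arrays (median 11.12) and 11.24 to 11.42 on the Mef2c shRNA arrays (median 11.32), without overlap. It rose by 0.21 ± 0.044 (115% of control, limma adjusted p = 0.00385), and its Nup210 shRNA arrays ran from 11.11 to 11.31 (median 11.20). Ndufb7, an accessory subunit of the membrane arm, was 8.56 to 8.84 on the control arrays (median 8.70), 8.63 to 8.74 on the Nup210 shRNA arrays (median 8.67) and 8.81 to 9.06 on the Mef2c shRNA arrays (median 8.93). One control array lay inside the Mef2c shRNA range. The rise was 0.23 ± 0.049 (adjusted p = 0.00368), and Nup210 shRNA was below Mef2c shRNA by -0.26 ± 0.049 (adjusted p = 0.00108).

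The accessory subunit Ndufa3 was 10.17 to 10.35 on the control arrays (median 10.26) and 10.40 to 10.52 on the Mef2c shRNA arrays (median 10.46), a rise of 0.21 ± 0.045 (limma adjusted p = 0.0044). Accessory subunits surround the catalytic core and are needed for its stability. The rises of Ndufs7, Ndufb7 and Ndufa3 held without any single array. Those of the accessory subunits Ndufa2 (0.18 ± 0.055, adjusted p = 0.0374) and Ndufa13 (0.16 ± 0.046, 0.0279) did not survive median centring (0.129 and 0.11). Ndufa2 was lost without Mef2c shRNA array 1, 3, 4 or 6 or control array 1, 2, 4, 5 or 6 (up to 0.0831), and Ndufa13 without Mef2c shRNA array 1 or 3 or control array 2 or 4 (up to 0.0715).

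The 6 core subunits had a median of 0.049 for Mef2c shRNA and -0.002 for Nup210 shRNA, and the 26 accessory subunits 0.084 and 0.054. For Nup210 shRNA against control none of the 40 complex I genes passed in limma, with 6 at an unadjusted p under 0.05; its largest difference was that of Ndufb11 (-0.21 ± 0.12, adjusted p = 0.357), a membrane arm subunit. Between the shRNA groups, Ndufa13 was lower with Nup210 shRNA by a log2 difference of -0.15 ± 0.046 (adjusted p = 0.0298; up to 0.0744 on leaving out Nup210 shRNA array 2 or 5 or Mef2c shRNA array 1 or 3). Ndufa10, an accessory subunit related to nucleoside kinases, was lower by -0.14 ± 0.036 (adjusted p = 0.0135).

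Complex II, succinate dehydrogenase, is also an enzyme of the TCA cycle. Its membrane anchor gene Sdhc was 10.08 to 10.22 on the control arrays (median 10.17), 10.17 to 10.38 on the Nup210 shRNA arrays (median 10.25) and 9.88 upwards on the Mef2c shRNA arrays (median 9.98, mean 9.96 ± 0.04 SD, n = 6). The Mef2c shRNA arrays lay below all others, and the other groups overlapped. Sdhc fell with Mef2c shRNA to 87.5% of control (-0.19 ± 0.043, limma adjusted p = 0.00566), and was higher with Nup210 than with Mef2c shRNA by 0.29 ± 0.043 (adjusted p = 8.48e-05). With Nup210 shRNA against control it was at 0.10 ± 0.043 (adjusted p = 0.178). Both calls held without any single array. The flavoprotein gene Sdha (0.06 ± 0.034), the iron-sulfur gene Sdhb (0.01 ± 0.054) and the other anchor gene Sdhd (0.09 ± 0.042) did not pass for Mef2c shRNA (adjusted p = 0.288, 0.935 and 0.234).

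**Figure D2:**
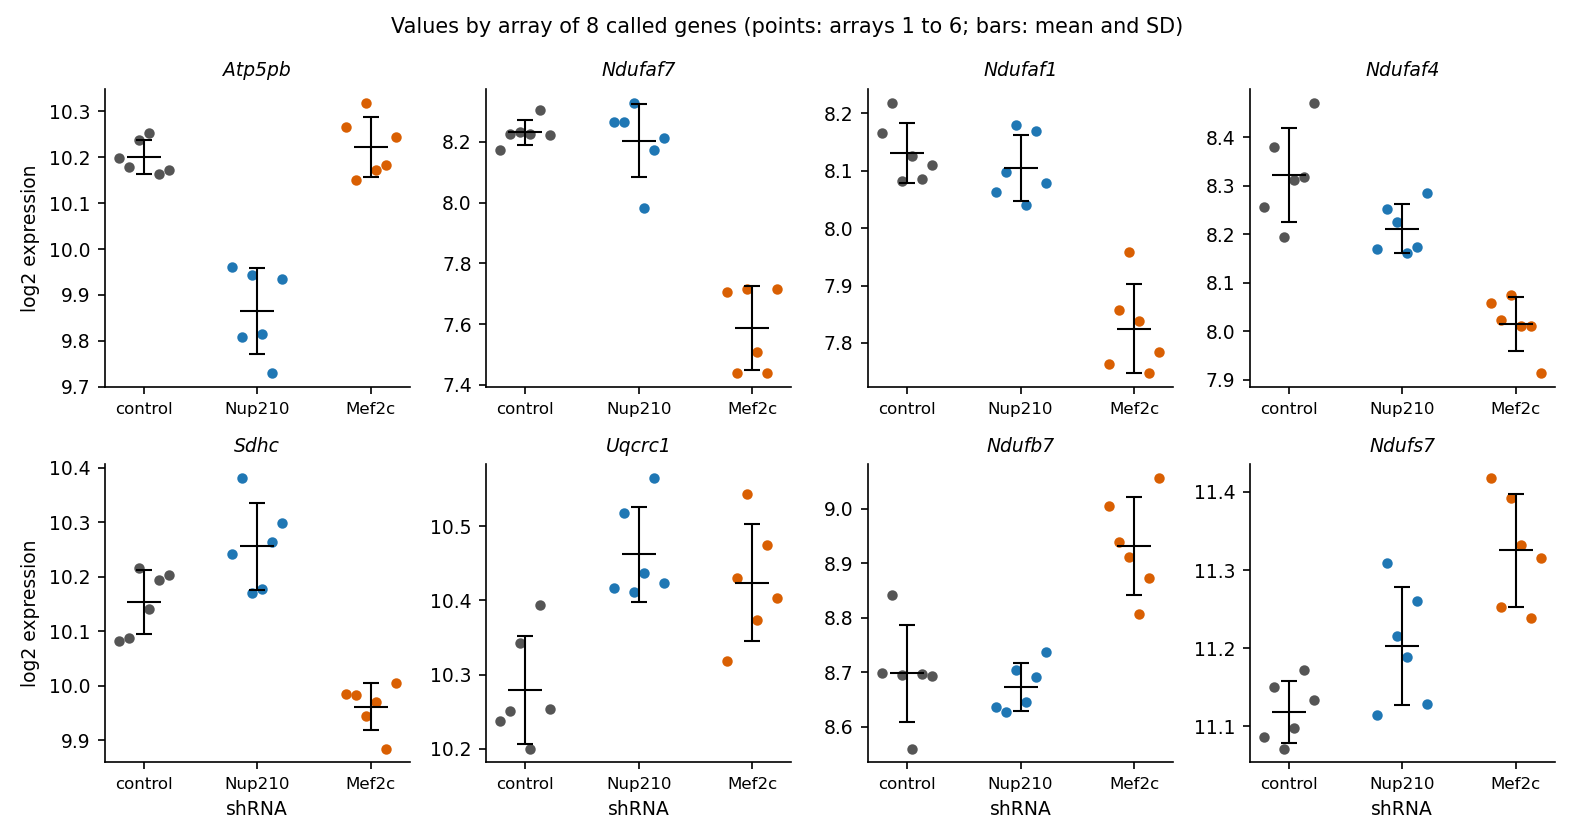
Log2 expression (vertical axes, each with its own range) on the 6 arrays of each group for 8 genes that passed limma in a comparison with control; points are arrays, bars the mean and SD. Atp5pb is low on the 6 Nup210 shRNA arrays only (9.73 to 9.96), and Ndufaf7, Ndufaf1, Ndufaf4 and Sdhc are low on the 6 Mef2c shRNA arrays only.

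In complex IV, cytochrome c oxidase, the muscle isoform of subunit 6a moved unequally to the ubiquitous one with Nup210 shRNA. Cox6a2 (muscle) was 10.76 to 10.95 on the control arrays (median 10.90), 10.40 to 10.86 on the Nup210 shRNA arrays (median 10.66) and 10.56 to 11.02 on the Mef2c shRNA arrays (median 10.87), all overlapping. Cox6a1 (ubiquitous) was 12.59 to 12.70 (median 12.68), 12.70 to 12.85 (median 12.78) and 12.73 to 12.84 (median 12.78); its control arrays lay below both other groups. Neither gene passed alone against control: Cox6a2 was at -0.26 ± 0.087 (limma adjusted p = 0.0808) and -0.06 ± 0.087 (0.757), and Cox6a1 at 0.10 ± 0.036 (0.09) and 0.11 ± 0.036 (0.0525) for Nup210 and Mef2c shRNA.

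The log2 ratio of Cox6a2 to Cox6a1 within an array was -1.94 to -1.64 on the control arrays and -2.42 to -1.88 on the Nup210 shRNA arrays. All 6 Nup210 shRNA arrays were below the control mean, and the groups overlapped at 1 end. The ratio was 77.9% of control (log2 difference -0.36, 95% interval -0.60 to -0.13, two-sided exact permutation p = 0.00433, adjusted p = 0.039 over 9 isoform tests). With Mef2c shRNA the difference was -0.17 (interval -0.37 to 0.02, exact p = 0.102, adjusted 0.229), and Nup210 against Mef2c shRNA gave -0.19 (interval -0.48 to 0.09, exact p = 0.165, adjusted 0.296).

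The lowest Cox6a2 values of the Nup210 shRNA group were on arrays 2, 4 and 5, and without these 3 arrays the difference of the ratio was -0.17. These arrays also hold the lowest ratios of the group, so leaving them out shrinks the difference by itself. The adjusted p also rose above 0.05 without Nup210 shRNA array 2 or 5 alone or without any 1 control array (0.0584 to 0.136). With 1 array left out, the smallest exact permutation p before adjustment is 0.00433. Of the 10 myotube markers, whose mean levels are given above, 2 fell with Nup210 shRNA: the muscle creatine kinase Ckm (-0.39 ± 0.055, limma adjusted p = 0.000167) and the embryonic myosin Myh3 (-0.20 ± 0.037, 0.00143). With Mef2c shRNA 2 of the 10 fell too, among them the actin Acta1 (-0.16 ± 0.033, 0.00304). The lowest difference among the 10 markers, called or not, was -0.39 in both comparisons. The calls were 20% of the 10 in each comparison, beside 5.11% and 6.42% of all genes called lower. Of the 13017 genes above background, 1109 and 1389 were called lower. The part of these markers in the Cox6a result was not tested.

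The other isoform pairs did not pass. Cox8b (muscle) was 8.27 to 8.59 on the control arrays (median 8.38), 8.08 to 8.55 on the Nup210 shRNA arrays (median 8.23) and 8.38 to 8.92 on the Mef2c shRNA arrays (median 8.52). As a single gene it was lower with Nup210 than with Mef2c shRNA by a log2 difference of -0.32 ± 0.10 (limma adjusted p = 0.0478), with overlap, and this call was lost on leaving out any of 12 single arrays (adjusted p up to 0.116); it held without Nup210 shRNA array 1 or 3, Mef2c shRNA array 2, 4 or 5, or control array 3. Cox8a (ubiquitous) ran from 11.12 to 11.27, 11.21 to 11.39 and 11.19 to 11.42. The ratio of Cox8b to Cox8a differed by -0.23 for Nup210 shRNA against control (interval -0.49 to 0.02, exact p = 0.0823, adjusted 0.229), by 0.09 for Mef2c shRNA (interval -0.23 to 0.41, exact p = 0.535, adjusted 0.802) and by -0.32 between them (interval -0.69 to 0.04, exact p = 0.0866, adjusted 0.229).

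Cox7a1 (muscle) was 6.74 to 7.36, 6.77 to 7.16 and 6.77 to 7.57 on the control, Nup210 and Mef2c shRNA arrays. Cox7a2 (ubiquitous) was 9.74 to 9.88, 9.73 to 9.85 and 9.85 to 10.04, and was lower with Nup210 than with Mef2c shRNA (-0.15 ± 0.04, limma adjusted p = 0.0165). Their ratio differed from control by -0.01 with Nup210 shRNA (interval -0.20 to 0.19, exact p = 0.933, adjusted 1) and by -0.01 with Mef2c shRNA (interval -0.31 to 0.30, exact p = 0.952, adjusted 1). Between the shRNA groups it differed by 0.00 (interval -0.26 to 0.29). The interval for Nup210 shRNA does not hold the -0.36 of the Cox6a pair, and the difference between the pairs was not tested.

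**Figure D3:**
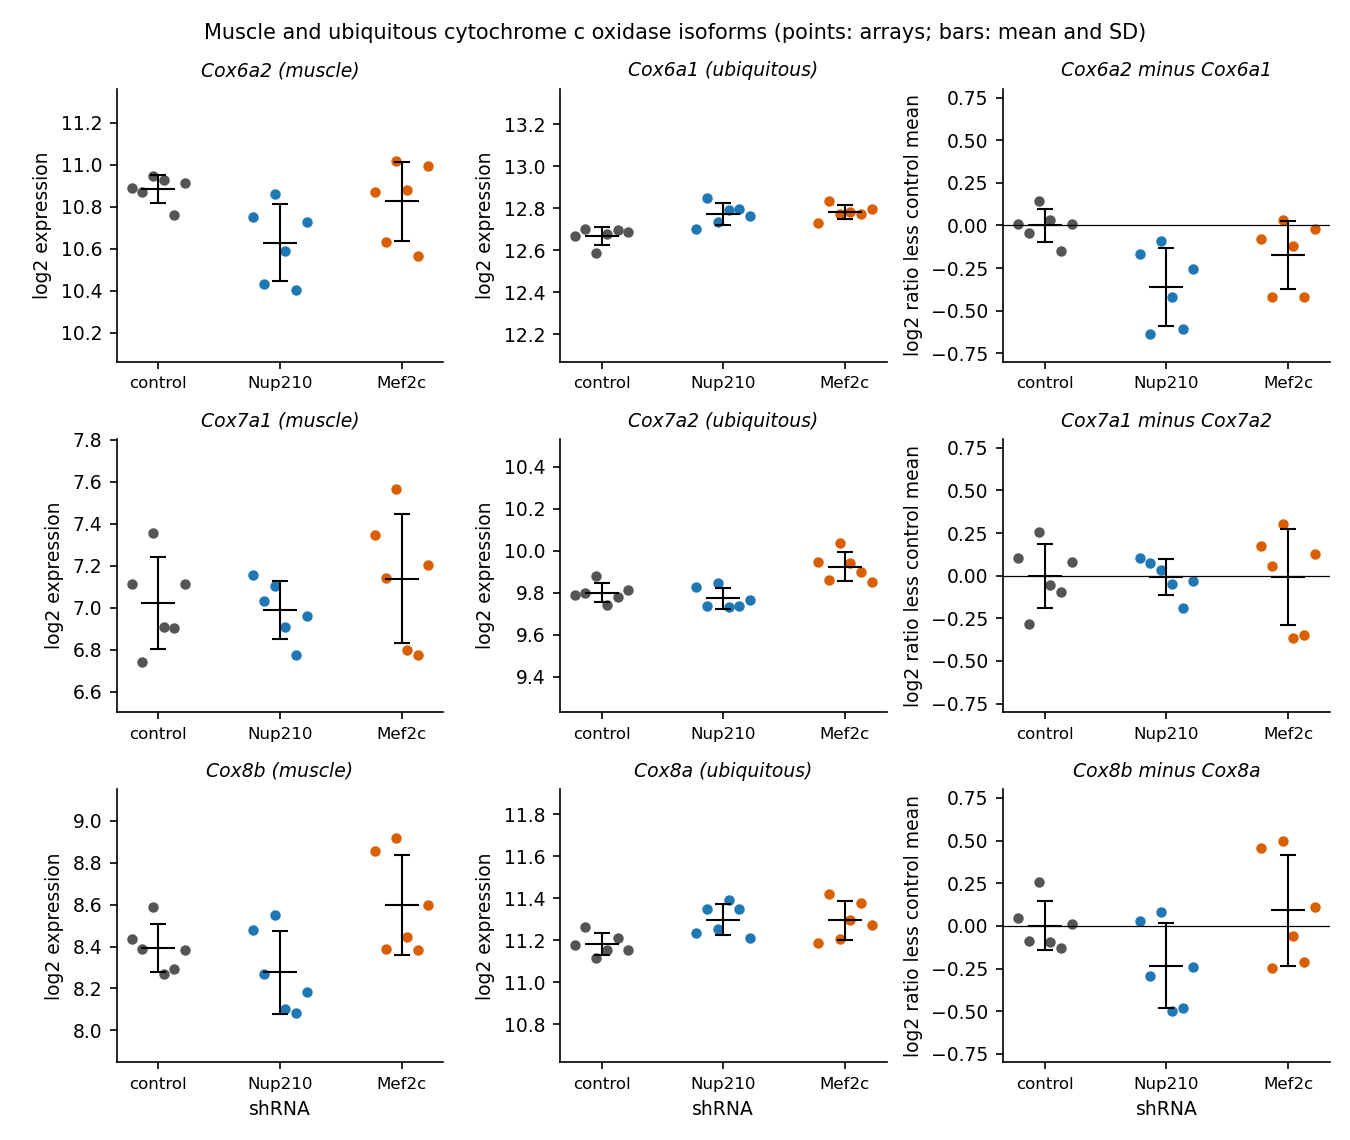
Log2 expression of the muscle isoform (left) and ubiquitous isoform (middle) of 3 complex IV subunits on 6 arrays per group, and their log2 ratio less the control mean (right, 1 common axis range); points are arrays, bars the mean and SD. The Cox6a2 to Cox6a1 ratio is below the control mean on all 6 Nup210 shRNA arrays, and the Cox7a pair is centred on the control mean in all groups.

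Of the remaining complex IV genes, Cox7a2l, whose protein joins complexes III and IV in supercomplexes, rose with Mef2c shRNA by 0.17 ± 0.05 (limma adjusted p = 0.0333). Its level was 7.44 to 7.56 on the control arrays and 7.55 to 7.79 on the Mef2c shRNA arrays, with overlap. The call did not survive median centring (0.111) or leaving out Mef2c shRNA array 1, 2, 3 or 4 or control array 1, 2 or 4 (up to 0.0779). Cox4i1, the ubiquitous form of the regulatory subunit, was at 0.07 ± 0.039 for Nup210 shRNA (adjusted p = 0.318) and 0.12 ± 0.039 for Mef2c shRNA (0.051), while its partner Cox4i2 was at background. All 5 ubiquitous isoforms, Cox6b1 included, had a difference above 0 for Mef2c shRNA (0.05 to 0.12) and none passed.

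Promoters are shown for Cox8b and Cox8a, which set a muscle and a ubiquitous gene side by side, and for Cox6a1, the ubiquitous gene of the pair whose ratio differed with Nup210 shRNA; Cox6a2 has no entry in the table. They are the 250 bases before each start, from RefSeq (GRCm38.p6), all on the minus strand of the chromosome: Cox6a1 at chr5:115348959-115349208, Cox8b at chr7:140900447-140900696 and Cox8a at chr19:7217617-7217866. Capitals mark matches to the motifs listed after them.
Cox6a1: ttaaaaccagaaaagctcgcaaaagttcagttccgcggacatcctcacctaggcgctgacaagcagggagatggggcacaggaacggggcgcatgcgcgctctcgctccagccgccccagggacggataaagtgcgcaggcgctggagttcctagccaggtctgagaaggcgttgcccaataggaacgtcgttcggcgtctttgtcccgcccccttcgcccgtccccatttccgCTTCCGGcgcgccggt
Cox8b: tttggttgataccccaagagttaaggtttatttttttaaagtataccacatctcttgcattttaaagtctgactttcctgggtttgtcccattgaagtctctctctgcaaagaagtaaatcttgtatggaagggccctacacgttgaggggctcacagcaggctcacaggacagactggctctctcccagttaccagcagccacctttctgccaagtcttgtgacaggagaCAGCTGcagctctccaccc
Cox8a: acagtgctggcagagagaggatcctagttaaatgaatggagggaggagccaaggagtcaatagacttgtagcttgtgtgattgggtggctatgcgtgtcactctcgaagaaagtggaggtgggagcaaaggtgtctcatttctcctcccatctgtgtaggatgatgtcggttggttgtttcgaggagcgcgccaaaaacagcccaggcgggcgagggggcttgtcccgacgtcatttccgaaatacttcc
Cox6a1 holds 1 match to the ETS motif, Cox8b 1 E-box and Cox8a none of the motifs searched.

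The motifs were searched on both strands in the 250 bases before the start of the 72 genes of the set with an entry, and in all 27025 promoters. The ETS motif CCGGAAG, which GABP reads, was in 13 of 72 (18.1%, against 7.05% of all promoters), and the full NRF1 consensus in 3 (4.17%, against 1.01%): Atp5g2, Ndufa11 and Sdhd. The ERR motif AAGGTCA was in 3 (4.17%, against 4.05%). The myogenic E-box CAGCTG was in 6 (8.33%, against 12.8%). The MEF2 consensus was in none of the 72 windows, against 3.01% of all promoters, which says only that these letters are not in the window. No test was made of these shares. Of the genes that passed with Mef2c shRNA, Ndufaf1 and Ndufb7 hold an ETS match. Ndufaf4, Ndufaf7, Ndufs7, Ndufa3, Ndufa13 and Cox7a2l hold none of the motifs, and Ndufa2 and Sdhc have no entry.

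The regulators of the program did not pass in either comparison with control by limma. Of 20 regulators of mitochondrial gene expression, none passed for Nup210 shRNA (2 at an unadjusted p under 0.05, median 0.022) or Mef2c shRNA (7, median -0.022). Ppargc1a was at 0.20 ± 0.11 for Nup210 shRNA and 0.10 ± 0.11 for Mef2c shRNA (adjusted p = 0.359 and 0.681), and Ppargc1b at -0.11 ± 0.059 and 0.02 ± 0.059 (0.337 and 0.863). Esrra was at 0.09 ± 0.045 and 0.01 ± 0.045 (0.249 and 0.947), Nrf1 at -0.02 ± 0.045 and -0.07 ± 0.045 (0.849 and 0.382), and Gabpa at -0.01 ± 0.045 and -0.09 ± 0.045 (0.911 and 0.235). Tfam was 7.09 to 7.43 on the control arrays, 7.02 to 7.16 on the Nup210 shRNA arrays and 6.74 to 7.21 on the Mef2c shRNA arrays (-0.12 ± 0.072 and -0.18 ± 0.072, adjusted p = 0.374 and 0.129). Of these 20, the coactivator Pprc1 alone passed between the shRNA groups (0.22 ± 0.046, limma adjusted p = 0.0023). Lrpprc, which is counted with the assembly factors below, was lower with Nup210 than with Mef2c shRNA (-0.21, adjusted p = 0.00152).

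Assembly factors of all complexes were counted next. Of 43, which include the 8 above, 1 rose and 2 fell with Nup210 shRNA (6.98% called, beside 8.16% of all genes), and 3 rose and 4 fell with Mef2c shRNA (16.3%, beside 10.8%). Of all genes above background, 13.1% were called with Nup210 shRNA and 17.2% with Mef2c shRNA. These shares also stand beside the lists that follow. Timmdc1, a membrane arm assembly factor of complex I, fell in both, by log2 differences of -0.19 ± 0.049 (limma adjusted p = 0.0197) and -0.18 ± 0.049 (0.0188), measured against the same control arrays. Cox10, which makes the haem A precursor for complex IV, rose with Mef2c shRNA by 0.20 ± 0.044 (0.00523) and with Nup210 shRNA by 0.15 ± 0.044 (0.0388). Uqcc1, a complex III factor, and Cox14, a complex IV factor, rose with Mef2c shRNA (0.19 ± 0.05, adjusted p = 0.0196; 0.17 ± 0.043, 0.0159), though not after median centring (0.0866 and 0.10). Cox19, a copper-handling factor of complex IV, fell with Nup210 shRNA (-0.20 ± 0.06, 0.0439). The Nup210 shRNA call of Cox19 was lost without 12 of the single arrays, that of Cox10 without 9 and that of Timmdc1 without control array 3 (0.0505).

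The pathways that feed the chain showed 1 larger difference. Cpt1a, which admits long-chain fatty acids to the mitochondrion, was 8.44 to 8.65 on the control arrays (median 8.51), 7.95 to 8.41 on the Nup210 shRNA arrays (median 8.19) and 8.64 to 8.95 on the Mef2c shRNA arrays (median 8.86). The Nup210 shRNA arrays lay below the control arrays, and the Mef2c shRNA arrays lay above them apart from 1 overlapping end. It fell with Nup210 shRNA (-0.35 ± 0.073, limma adjusted p = 0.00521), rose with Mef2c shRNA (0.32 ± 0.073, 0.00692) and differed between them by -0.67 ± 0.073 (4.94e-06). Of the 16 fatty acid oxidation genes, 1 rose and 1 fell with Nup210 shRNA (median 0.023; 12.5% called, beside 8.16% of all genes). With Mef2c shRNA 4 rose and 1 fell (median 0.084; 31.2%, beside 10.8%). With Mef2c shRNA the enoyl-CoA isomerase Eci1 rose (0.20 ± 0.051, 0.0152), and so did Acads and Etfb (each 0.17, adjusted p = 0.0273 and 0.0324; 0.112 and 0.0697 with median centring), while the trifunctional protein gene Hadha fell (-0.15 ± 0.042, 0.024). The inner membrane transferase Cpt2 rose with Nup210 shRNA (0.17 ± 0.05, 0.0426).

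Of 17 pyruvate dehydrogenase and TCA cycle genes, 23.5% were called with Nup210 shRNA, beside 8.16% of all genes, and 11.8% with Mef2c shRNA, beside 10.8%. With Nup210 shRNA 2 rose and 2 fell: Suclg2 (0.21 ± 0.062, limma adjusted p = 0.0441), Idh3b (0.13 ± 0.036, 0.0336), Idh2 (-0.16 ± 0.043, 0.029) and Pdha1 (-0.14 ± 0.041, 0.0427). With Mef2c shRNA 1 rose and 1 fell, and both encode subunits of the same NAD-linked isocitrate dehydrogenase: Idh3b (0.14 ± 0.036, 0.0152; 0.0703 with median centring) and Idh3a (-0.17 ± 0.045, 0.0176). Of 11 genes for cytochrome c, carriers and energy transfer, Atpif1, the ATP synthase inhibitor, rose with Nup210 shRNA (0.14 ± 0.042, 0.0441), and the adenine nucleotide carrier Slc25a4 fell with Mef2c shRNA (-0.15 ± 0.04, 0.0185). Each was the only call in its comparison (9.09% of the 11). The Nup210 shRNA calls in this paragraph and that of Cpt2 were each lost without 5 to 13 of the single arrays, and the mean of the Suclg2 probe sets was at 0.13 (adjusted p = 0.374).

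**Figure D4:**
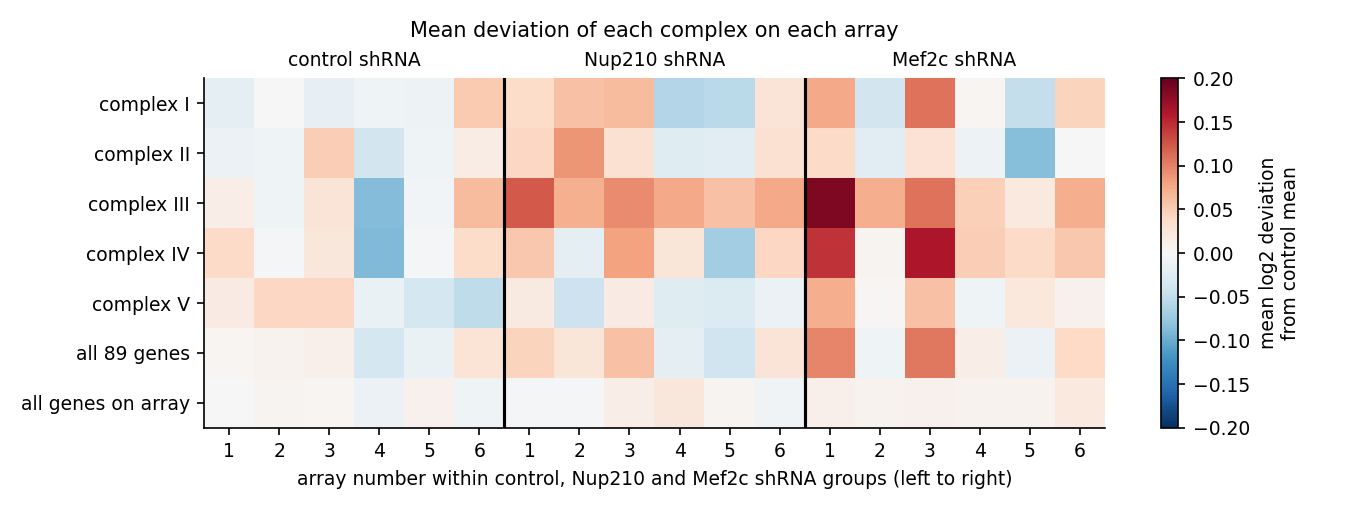
Mean log2 deviation from the control mean over the genes of each complex (rows) on each of the 18 arrays (columns, 6 per group); red is above and blue below the control mean. Mef2c shRNA arrays 1 and 3 are the deepest red for all 89 genes (0.097 and 0.106), while the row of all genes on the array stays between -0.011 and 0.023.

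Averaged per array, the 89 genes stood -0.035 to 0.027 from the control mean on the control arrays, -0.040 to 0.059 on the Nup210 shRNA arrays and -0.011 to 0.106 on the Mef2c shRNA arrays, and the groups overlapped. The 2 highest were Mef2c shRNA arrays 3 and 1. Complex III was 0.059 to 0.123 on the Nup210 shRNA arrays against -0.087 to 0.063 on the control arrays. This mean over 8 genes includes the pseudogene Uqcrh-ps1, which is at background (0.16 ± 0.14 for Nup210 shRNA against control). Uqcrh-ps1 was 3.667 to 4.224 on the Nup210 shRNA arrays. It was 3.275 on control array 4, the array with the lowest complex III mean (-0.087). On Nup210 shRNA arrays 2 and 6 the pseudogene was at 3.667 and 3.779, under its control mean of 3.80. The complex III means of these arrays were 0.071 and 0.076. The part of the pseudogene in the complex III values was not tested, and neither was a shift of the subunit genes as a set. Complex V was -0.041 to 0.018 on the Nup210 shRNA arrays and -0.009 to 0.073 on the Mef2c shRNA arrays. Within groups the genes varied together: after group means were removed, the median correlation between pairs of the 80 genes above background was 0.229 over the 18 arrays, against 0.012 for pairs of 13017 genes above background. It was 0.290 within complex I, 0.163 within II, 0.249 within III and IV and 0.166 within V. These pairs share the arrays and their normalization.

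Second probe sets were present for 9 genes. They followed the brightest one over the arrays for Atp5g2 (r = 0.92), Ndufa12 (0.61), Atp5d (0.52) and Ndufa8 (0.49), and not for Ndufa11 (0.05), Cox7b (0.02), Atp5e (-0.02), Atp5h (-0.08) and Cox5b (-0.31). The second probe set of Atp5g2 was at -0.04 for Nup210 shRNA and 0.11 for Mef2c shRNA, beside -0.07 and 0.07 for the brightest. None of the oxidative phosphorylation genes called against control has a second singly named probe set.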

How the data were processed

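The authors deposited log2 expression values per probe set, made with RMA and Partek per the submitters' processing notes (versions and genome build not given in the sources used here). This method quantile-normalizes arrays and compresses differences of dim genes. No other per-sample columns were present. Of 41345 probe sets, 23521 had 1 symbol, 1814 several and 16010 none; the brightest singly named probe set stood for each of 22180 genes, and all 89 symbols were in the RefSeq table.

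All 18 arrays entered 1 limma fit (limma 3.58.1 under R 4.3.3) of the group means, with 15 residual degrees of freedom, and p-values were adjusted over all genes by Benjamini-Hochberg. Errors of differences are SE. The fit was tested on simulated data. For 3 isoform pairs, log2 ratios were set against each other in two-sided exact permutation tests (924 splits), adjusted over 9 tests; intervals invert that test. Replicate numbers were not used as pairs, since the titles do not say whether equal numbers mark a shared culture. Same-numbered arrays deviated together at r -0.22 to 0.46, over 0.1 in 11 of 18 pairs. Of the 18 arrays, 13 correlated best with an array of their own number. Results with the number as a block are given below.

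The genes, lists and tests were chosen with earlier results of these data known. Genes named were the isoforms, 6 regulators, the targeted genes, called members (up to 12 per direction), the largest difference per complex, members at background and the 3 largest called changes per list; neighbours, catalytic subunits and motif-bearing genes were named after values were seen. Of the listed genes 7 had no singly named probe set. Alternatives changed the normalization, dim-gene filter, probe set rule, prior, weights, threshold, block and arrays used. The number of arrays limits the precision.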

Additional observations from a re-analysis of the deposited data

Results flagged for a closer look

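Among 84 groups of 6 arrays (28 values in 3 groups), 1 array stood apart from its group. Cox6a1 was 12.59 on control array 3, while the nearest control array was at 12.67 and the farthest at 12.70, so the gap was 0.721 of the group's range, past Dixon's critical value for 6 samples. Chance gives such a gap in about 1 in 20 groups. The Cox6a2 to Cox6a1 difference for Nup210 shRNA lies within -0.42 to -0.31 when any single array is left out, this one included.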

How the results depend on the processing

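The medians of the 89 genes kept their sign in every alternative run: without single arrays they were 0.017 to 0.036 (Nup210 shRNA against control), 0.042 to 0.069 (Mef2c shRNA against control) and -0.045 to -0.019 (between them). With median centring they were 0.018, 0.037 and -0.023 (0.032, 0.063 and -0.036 as reported), the first was 0.013 with the mean of a gene's probe sets, and without Nup210 shRNA arrays 2, 4 and 5 the first was 0.048 and the third -0.005. Counts of called genes moved more. For Nup210 shRNA against control (2 genes, 2.25% beside 8.16% of all genes) the count was 4 with the replicate number as a block (4.49% beside 10%). It was 5 of 80 without dim genes (6.25% beside 18.1%) and 5 with a trended robust prior (5.62% beside 10%). It was 1 at an adjusted p under 0.01 (1.12% beside 4.08%) and 1 without control arrays 4 and 6 (1.12% beside 4.97%). Without single arrays the count was 1 to 3 (1 without Nup210 shRNA array 5 or control array 4). For Mef2c shRNA against control (10, or 11.2% beside 10.8% of all genes) it was 19 with the replicate block (21.3% beside 12.9%), 17 with renewed quantile normalization (19.1% beside 11.4%), 21 of 80 without dim genes (26.2% beside 23.2%), 21 with a trended robust prior (23.6% beside 13%), 17 with array weights (19.1% beside 12.2%) and 7 to 13 without single arrays; the 10 genes were among those called in each of these 5 fits of all arrays. Between the shRNA groups (14, or 15.7% beside 14.0% of all genes) the count was 8 with only both groups in the fit (8.99% beside 11.1%). It was 9 with median centring (10.1% beside 12.5%) and 8 at an adjusted p under 0.01 (8.99% beside 8.56%). It was 9 without Nup210 shRNA arrays 2, 4 and 5 (10.1% beside 9.41%), and 10 to 15 without single arrays. The share was thus above that of all genes in some settings and below it in others. The Cox6a2 to Cox6a1 difference for Nup210 shRNA was -0.36 with the replicate block, -0.17 without Nup210 shRNA arrays 2, 4 and 5 and -0.35 without control arrays 4 and 6. It no longer passed there (exact permutation tests, adjusted p = 0.0562, 0.429 and 0.257). Before adjustment over 9 tests, the smallest exact p that these settings can give is 0.0312, 0.0238 and 0.00952. A single low result among the 9 could therefore not pass, and the lost calls by themselves say little about the difference. Without single arrays it was -0.42 to -0.31. Nup210 shRNA arrays 2, 4 and 5 hold the lowest ratios of their group, so leaving them out shrinks the difference by itself. Under the replicate block, Cox6a2 passed for Nup210 shRNA against control (adjusted p = 0.00555) and against Mef2c shRNA (0.017), and Cox8b for Mef2c shRNA against control (0.0211); 13 of 18 arrays correlated best with their own number, a hint from the data and not from the design. Leaving out dim genes tests fewer genes, and Cox6a2 then passed for Nup210 shRNA against control (0.0384). The cause of the other shifts was not tested. No called value of a single gene changed direction in the alternatives run; Cox7a1 for Nup210 shRNA against control, not called at -0.03, was -0.09 to 0.03 without single arrays and 0.05 without Nup210 shRNA arrays 2, 4 and 5, where Cox8b, not called at -0.12, was 0.01. Of the values of single genes, 1771 kept their side of the threshold, 312 lost it and 5 newly passed it.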
